A study of Mus musculus with 2 samples.

Results

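The genes described here are 9 that handle iron and heme: *Tfrc*, *Slc11a1*, *Slc40a1*, *Fth1*, *Ftl1*, *Hp*, *Cd163*, *Hmox1* and *Blvrb*. They were listed by name, without a threshold on any value, and are 9 of the 22337 gene symbols measured. The data are single-cell RNA-Seq of immune cells from Bm12 mouse hearts transplanted into B6 recipients, whose CD4+ T cells recognize the altered MHC class II molecule of the Bm12 graft. The heart allografts were taken at postoperative day (POD) 14 and comprised 3 labelled BM12 WT (IL-33+ hearts, numbered 1, 2 and 3) and 3 labelled BM12 IL33 KO (IL-33- hearts, numbered 4, 5 and 6). By its label the second group has an *Il33* knockout in the graft, whereas the recipients of both groups are B6. The hearts were perfused with heparin in PBS, digested with collagenase and enriched for immune cells on a density gradient, and each heart was marked by its own hashtag before 1 pooled 3′ gene expression library was made.

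Cells take up iron bound to transferrin through the transferrin receptor, store it inside the ferritin shell and release it through ferroportin. Macrophages also receive iron from hemoglobin: haptoglobin captures free hemoglobin, CD163 takes up the complex, heme oxygenase opens the heme ring to free the iron, and biliverdin reductases convert the biliverdin that is left. In the heart, bleeding and dying cardiomyocytes bring hemoglobin and myoglobin to infiltrating phagocytes.

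Several of these transcripts carry an iron-responsive element, a hairpin that iron regulatory proteins bind when cells are short of iron. A hairpin in the 5′ UTR then blocks translation, and hairpins in the 3′ UTR protect the transcript from decay, so the transcript levels below do not give protein levels. The elements are shown because they divide the members into those with a 5′ hairpin (storage and export) and the one with 3′ hairpins (uptake). A pattern of 27 bases was searched in the GENCODE vM21 transcripts of 21875 genes on GRCm38: 5 lower stem bases, an unpaired C, 5 upper stem bases, the loop CAGTGN, and the 2 stems' partner bases, with all 5 upper pairs and at least 4 of 5 lower pairs formed (G with T allowed). It was found in the 5′ UTR of 6 genes (0.0274%) and in the 3′ UTR of 10 genes (0.0457%), and 4 of the 9 members had it. The sequences are given 5′ to 3′ on the transcript, with the loop in capitals.
*Fth1*, 5′ UTR, chr19:9982733-9982759, plus strand: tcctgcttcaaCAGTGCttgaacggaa
*Ftl1*, 5′ UTR, chr7:45459780-45459806, minus strand: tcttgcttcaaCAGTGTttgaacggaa
*Slc40a1*, 5′ UTR, chr1:45925466-45925492, minus strand: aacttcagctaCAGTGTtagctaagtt
*Tfrc*, 3′ UTR, chr16:32631220-32631246, plus strand: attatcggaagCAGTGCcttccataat
*Tfrc*, 3′ UTR, chr16:32631599-32631625, plus strand: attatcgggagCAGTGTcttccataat
*Tfrc*, 3′ UTR, chr16:32631664-32631690, plus strand: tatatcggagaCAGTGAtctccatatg
*Tfrc*, 3′ UTR, chr16:32631711-32631737, plus strand: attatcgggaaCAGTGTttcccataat

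The promoters of the 3 members whose levels were most alike across cell types (*Fth1*, *Ftl1* and *Slc11a1*, described below) were read from RefSeq on GRCm38.p6, as the 250 bases before an annotated start. Capitals mark matches to CCAAT (the CCAAT box, read on both strands, ATTGG on the strand shown) or to GAGGAA (the core of PU.1 sites, both strands).
*Slc11a1*, chr1:74374953-74375202, plus strand: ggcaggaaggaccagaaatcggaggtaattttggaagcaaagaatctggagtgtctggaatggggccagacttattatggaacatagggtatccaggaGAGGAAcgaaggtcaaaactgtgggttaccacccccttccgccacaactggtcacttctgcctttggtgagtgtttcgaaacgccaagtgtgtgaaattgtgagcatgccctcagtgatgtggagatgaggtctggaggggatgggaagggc
*Fth1*, chr19:9982396-9982645, plus strand: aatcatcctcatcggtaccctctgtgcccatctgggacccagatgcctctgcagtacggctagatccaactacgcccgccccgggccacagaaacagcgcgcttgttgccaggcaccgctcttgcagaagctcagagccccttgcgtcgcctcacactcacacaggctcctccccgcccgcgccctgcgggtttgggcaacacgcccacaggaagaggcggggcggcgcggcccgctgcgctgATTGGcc
*Ftl1*, chr7:45459887-45460136, minus strand: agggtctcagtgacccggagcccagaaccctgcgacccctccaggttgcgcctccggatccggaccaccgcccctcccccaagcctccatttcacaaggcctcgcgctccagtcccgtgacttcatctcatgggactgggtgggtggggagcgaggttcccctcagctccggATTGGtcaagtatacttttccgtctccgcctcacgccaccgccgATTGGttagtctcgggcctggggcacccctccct
CCAAT was present once in the *Fth1* window and 2 times in the *Ftl1* window, against 33.9% of 32851 promoters of this length, and GAGGAA was present once in *Slc11a1*, against 23.3%. TGANNNNGC, the core of the antioxidant response element, was present in 35.2% of all promoters and in *Slc11a1* and *Blvrb*. CCAAT was also present once in *Cd163* and in 1 of 2 windows of *Tfrc*, and the window of another annotated *Fth1* start held none of the 3 motifs. The promoters of *Hmox1*, *Hp* and *Slc40a1* were not shown.

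The deposited matrix held 4441 cells, 230 to 1666 per heart, in 14 cell types named by the authors. A cell had 1500 to 14977 UMIs (median 3698), a heart had 908129 to 7012943 UMIs in all, and no cell barcode was shared between hearts. Levels are given per heart and cell type, as CPM averaged across the cells. A UMI counts a molecule once at its 3′ end, so CPM does not depend on transcript length. Such means cannot tell fewer expressing cells from less RNA per cell. *Il33*, the targeted gene, had 177 UMIs in all cells and did not tell the labels apart. In fibroblasts it was 1.65-fold higher in the hearts labelled IL33 KO (log2 difference IL-33+ over IL33 KO −0.72, SE 0.79, limma adjusted p = 0.998). That difference was smaller than its standard error, and hearts 2 and 5 held 6 and 4 fibroblasts. The genotypes below are therefore those of the labels, and each direction between them rests on the labels alone. Hemoglobin UMIs were present in 37.3% of cells and in 33.03% to 50.6% of the cells of every type, while *Slc4a1*, a defining marker of erythroid cells, had 0 UMIs in all cells. The 10 macrophage markers summed to 4459 to 8699 CPM in macrophages, 2004 to 9937 CPM in Mo-DCs, 829 to 2549 CPM in monocytes and at most 380 CPM in any heart of a lymphocyte type. The type names came from the same transcriptomes, so differences between types are not independent of the naming.

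Between the averages of the myeloid and the lymphocyte types, 6 of the 9 members were higher in the myeloid types and *Tfrc* was higher in the lymphocyte types. In the mean of the 4 myeloid types (macrophages, monocytes, Mo-DCs and cDCs) against the mean of 8 lymphocyte types (B, NK, NKT, Treg, Tem/eff, Trm-like, Tcm and Tn, without unconventional T cells), *Hmox1* was 14.1-fold higher (log2 difference 3.82, SE 0.13, adjusted p = 4.67e-41), and *Hp* (2.33, SE 0.17), *Ftl1* (2.25, SE 0.07), *Slc11a1* (2.17, SE 0.20), *Fth1* (1.81, SE 0.05) and *Blvrb* (1.47, SE 0.16) were higher as well, each at an adjusted p of 2.99e-13 or less. *Tfrc* was lower by the same test (log2 difference −1.07, SE 0.21, adjusted p = 1.16e-05), and fell under 2-fold without heart 4 (−0.85) or with 50 CPM added in place of 10 (−0.50). In means, single types were not divided this way for *Tfrc*: Mo-DCs averaged 45.7 CPM, above NKT (43.0 CPM), Tn (39.4 CPM), NK (36.2 CPM) and Trm-like cells (27.8 CPM). The Mo-DC mean rested on 19 UMIs, with 2 hearts at 0 and heart 6 at 147 CPM. Mo-DCs were above NKT in 2 of 6 hearts. Their median heart had 30.5 CPM, below NKT (42.7 CPM), NK (36.7 CPM) and Tn (33.5 CPM) and above Trm-like cells (28.15 CPM). Genes were called at an adjusted p of 0.05 or less and at least 2-fold on the log2(CPM + 10) scale (limma across all genes, with cell type and heart as terms). Of all genes tested, 6.27% were called higher and 6.54% lower in the myeloid types. The 9 members had a median log2 difference of 1.81 and all genes one of −0.09. *Cd163* (0.41) and *Slc40a1* (0.43) passed the adjusted p but not the 2-fold limit.

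**Figure D1:**
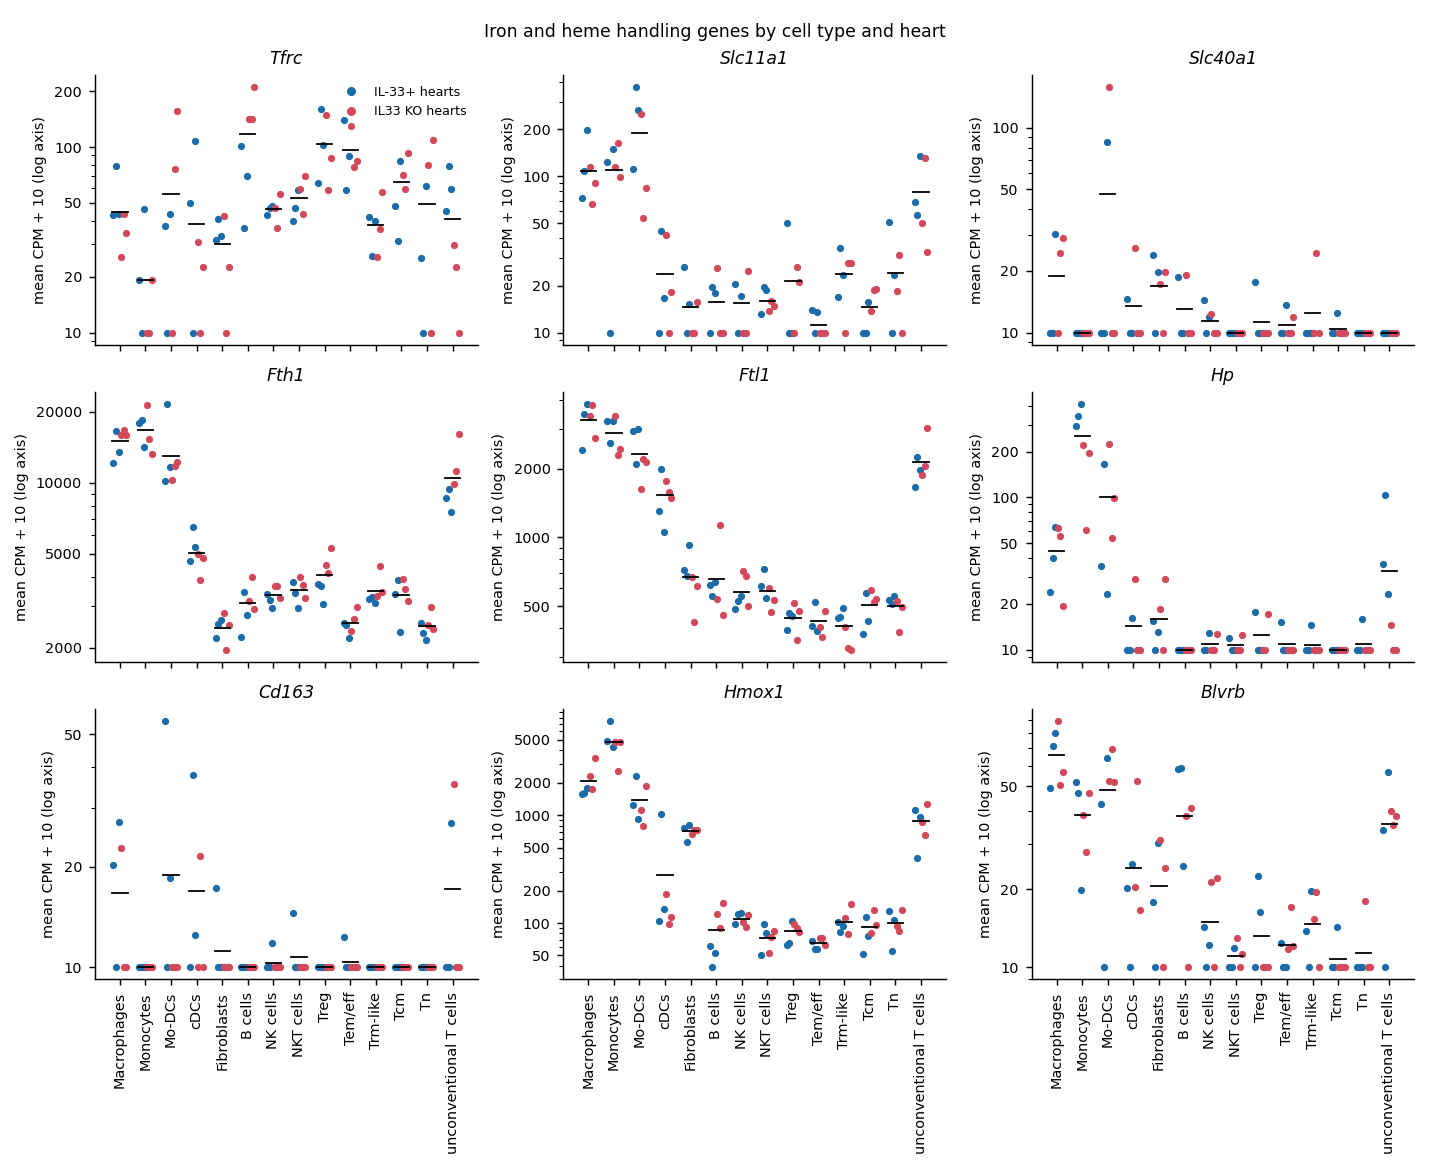
Mean CPM of each of the 9 genes (1 panel each) in the 14 cell types, plotted as CPM + 10 on a log axis, so that a heart with no UMI lies at 10; points are the 6 hearts, blue for IL-33+ and red for IL33 KO, and horizontal lines mark the mean over hearts. Monocytes averaged 4770 CPM of *Hmox1*, macrophages 2049 CPM, unconventional T cells 864 CPM and none of the 8 lymphocyte types more than 99.2 CPM, while *Tfrc* was highest in B cells at 107 CPM.

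Within the myeloid and stromal cells, macrophages had the same set of higher genes against cDCs and against fibroblasts. Against cDCs, 6 members were higher and 0 lower, with 3.2% of all genes called higher and 1.91% lower. Against fibroblasts, again 6 were higher and 0 lower, with 8.41% and 10.8% of all genes called. In both comparisons these were *Hmox1*, *Fth1*, *Ftl1*, *Slc11a1*, *Hp* and *Blvrb*, of which *Hp* fell under 2-fold with 50 CPM added (0.61 and 0.57). The members' median log2 difference was 1.59 against cDCs and 1.49 against fibroblasts (all genes 0.00 and −0.03). Against monocytes, 0 members were higher and 2 lower, *Hmox1* and *Hp*, with 1.44% of all genes called higher and 0.548% lower. The median there was 0.27, also with the 2 members at 0 UMIs in monocytes set to their bound (all genes 0.06). Against Mo-DCs, 0 were higher and 0 lower, with 3.37% and 0.868% of all genes called and a median of 0.26 (all genes 0.10). At an adjusted p alone, that is without the 2-fold limit, no member passed against Mo-DCs either, and the nearest was *Ftl1* (log2 difference 0.50, SE 0.17, adjusted p = 0.0531).

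**Figure D2:**
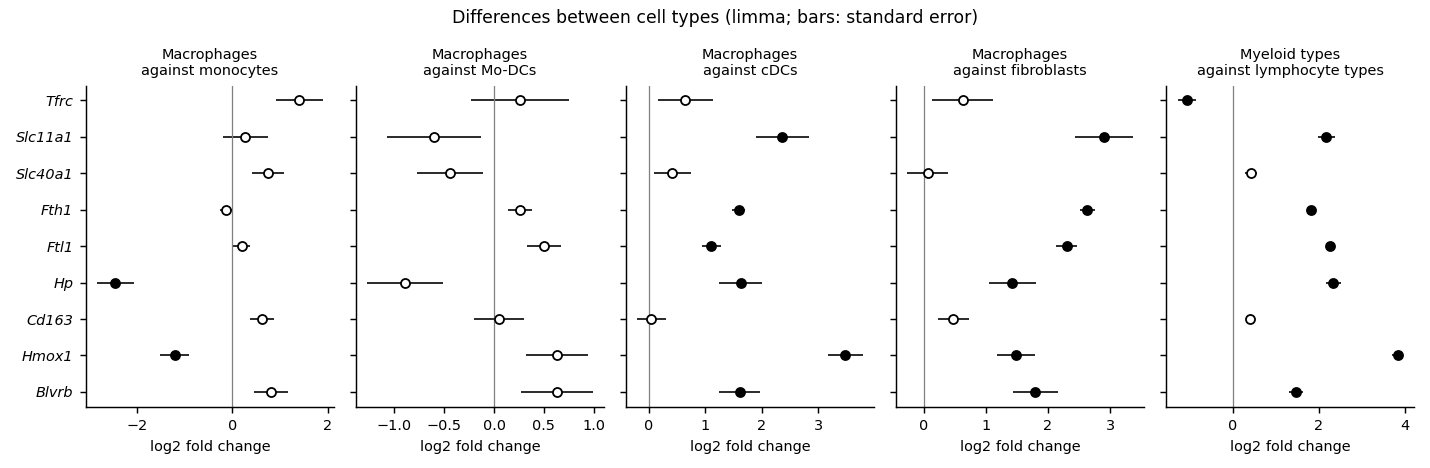
Log2 difference in level (CPM + 10) of each member between macrophages and 4 other types, and between the myeloid and lymphocyte types; points are the fitted differences, filled where the gene was called, and bars their standard errors. *Hmox1* lies at −1.21 against monocytes and 3.48 against cDCs, and *Tfrc* lies below 0 at −1.07 for myeloid against lymphocyte types.

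*Tfrc* (chr16:32608920-32632794), the receptor that takes up transferrin-bound iron, was highest in B cells, Treg and Tem/eff. In B cells it had 91.3, 26.6 and 59.9 CPM in IL-33+ hearts 1 to 3 and 132, 131 and 201 CPM in IL-33- hearts 4 to 6 (107 ± 61.7 CPM, SD, n = 6 hearts). Treg had 54.4, 150.4, 92.0, 139, 48.7 and 77.7 CPM in hearts 1 to 6 (93.6 ± 42.6) and Tem/eff 130.5, 48.5, 79.8, 120.3, 68.5 and 73.6 CPM (86.9 ± 31.8). The hearts of these 3 types overlapped, and B cells were above Treg in 3 of 6 hearts. Macrophages had 34.9 ± 18.3 CPM, and monocytes were lowest of all types with 9.14 CPM from 9 UMIs and 3 hearts at 0. With every cell thinned to 1500 UMIs, 12.9% of B cells, 11.6% of Tem/eff and 1.32% of monocytes had a *Tfrc* UMI (unthinned 20.3%, 33.3% and 5.20%, at median depths of 2292, 5693 and 6709 UMIs).

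*Slc11a1* (chr1:74375195-74386062) encodes NRAMP1, a pump that moves iron and manganese out of the phagosome; B6 mice, the recipients, are known for an allele whose protein does not function. Its transcript was found in Mo-DCs at 102, 364, 256, 242, 44.2 and 74.3 CPM in hearts 1 to 6 (180.4 ± 126). Monocytes had 114, 0, 139, 105, 152 and 89.7 CPM (100.1 ± 54.0), with the 0 in heart 2 resting on 5 cells. Macrophages had 62.6, 97.5, 189, 104, 57.0 and 81.1 CPM (98.5 ± 47.9). The 3 types overlapped, and outside them and unconventional T cells (69.3 CPM) no type exceeded 14.1 CPM. In every heart macrophages stood above cDCs (log2 difference 2.36, SE 0.47, adjusted p = 0.000129) and fibroblasts (2.90, SE 0.47, adjusted p = 2.57e-07). Of thinned cells, 19.9% of Mo-DCs, 14.9% of monocytes and 12.7% of macrophages had a UMI, against 1.86% of Tn, a type not known to use the gene (unthinned 26.5%, 46.8%, 38.0% and 2.88%, at median depths of 2310, 6709, 6606 and 2764 UMIs).

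*Slc40a1* (chr1:45908068-45926523), which encodes ferroportin, the only known exporter of iron from cells, had 82 UMIs in the whole data set. Macrophages had 0, 0, 20.4, 0, 14.6 and 18.9 CPM in hearts 1 to 6 (23 UMIs in 9 of 429 cells). Fibroblasts had 14.0, 0, 9.83, 7.29, 0 and 9.68 CPM (19 UMIs in 18 of 375 cells), and 1 of those 18 cells also had 2 endothelial markers. Mo-DCs had 75.3 CPM in heart 3 and 149 CPM in heart 4 and 0 in the other hearts (23 UMIs in 14 cells). Hearts with and without a UMI were found in each of these types, so their order was not settled. None of the 154 monocytes had a UMI, which allows a share of cells with a UMI of up to 1.95% and does not limit the share of cells expressing the gene, and the macrophage mean of 8.99 CPM was at least 3.19-fold higher than the limit of 3 UMIs over all monocytes. Such limits cover counting error only. The fitted macrophage over monocyte difference did not pass the test (0.74, SE 0.33, limma adjusted p = 0.333).

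*Fth1* (chr19:9980598-9985098), the ferritin heavy chain that oxidizes iron for storage, was the most abundant member with 121621 UMIs. Monocytes had 17805, 18463, 14163, 21243, 15242 and 13180 CPM in hearts 1 to 6 (16683 ± 3030), which is over 1% of their UMIs. Macrophages had 12059, 16503, 13449, 15907, 16651 and 15896 CPM (15077 ± 1878). Mo-DCs had 10196 to 21504 CPM (12933 ± 4283), with the highest value in heart 2 from 4 cells. Monocytes and macrophages overlapped and monocytes were above in 4 of 6 hearts, with a difference that did not pass the test (macrophages over monocytes −0.14, SE 0.12, adjusted p = 0.837). cDCs held 3854 to 6502 CPM (5022 ± 877) and did not overlap macrophages (log2 difference 1.59, SE 0.12, adjusted p = 2.14e-17). Fibroblasts were lowest at 2193, 2506, 2610, 2795, 1952 and 2482 CPM (2423 ± 302.8; macrophages over fibroblasts 2.63, SE 0.12, adjusted p = 2.16e-31), while lymphocyte types averaged 2473 to 4052 CPM with Treg highest. Even after thinning, 99.6% of macrophages and 93.9% of Tn had a UMI (100% and 98.8% unthinned), so the types differed in level and hardly in detection. Macrophages were 9.66% of cells and held 35.1% of all *Fth1* UMIs.

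*Ftl1* (chr7:45457944-45459884), the light chain that seeds the mineral inside ferritin, followed the heavy chain. Macrophages had 2402, 3463, 3829, 3381, 3799 and 2721 CPM (3266 ± 583) and monocytes 3243, 2572, 3231, 3397, 2286 and 2427 CPM (2859 ± 484), overlapping (0.19, SE 0.17, adjusted p = 0.826). cDCs had 1522 ± 333 CPM (macrophages over cDCs 1.11, SE 0.17, adjusted p = 4.23e-07, and 0.95 without heart 3, under 2-fold) and fibroblasts 663 ± 163 CPM (2.30, SE 0.17, adjusted p = 5.21e-21). *Ftl1* has a near-identical copy, *Ftl1-ps1*, which had 700 UMIs beside 25351 for *Ftl1*, and reads of the copies may have been split between them.

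The 2 chains differed in balance between types. The *Fth1* to *Ftl1* ratio in macrophages was 5.02, 4.77, 3.51, 4.71, 4.38 and 5.84 in hearts 1 to 6. Treg had a mean ratio of 9.46 (6.91 to 11.98), above every macrophage heart, and Trm-like 9.10, whereas cDCs had 3.42 and fibroblasts 3.79. In macrophages the ratio was 4.43 ± 0.807 in IL-33+ hearts and 4.98 ± 0.766 in IL-33- hearts (log2 difference −0.17, two-sided exact permutation p = 0.6, n = 3 hearts per group, where 0.1 is the smallest p possible).

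*Hp* (chr8:109575128-109579172), haptoglobin, which binds free hemoglobin, had its highest mean among the 14 types in monocytes. It was not confined to them. The 46 Mo-DCs with at least 4 of 8 neutrophil markers, described below, averaged 330 CPM (0 to 627 CPM over hearts). After thinning, 19.65% of those cells had a UMI. Monocytes were 3.47% of cells and held 277 of its 435 UMIs (63.7%). Their level was 286, 334 and 399.8 CPM in IL-33+ hearts and 210.1, 51.3 and 185 CPM in IL-33- hearts (244 ± 123, n = 6). Mo-DCs had 25.4, 157, 13.4, 214, 44.2 and 88.6 CPM, and macrophages 13.9, 29.9, 53.8, 53.3, 45.7 and 9.44 CPM (34.3 ± 19.6). Macrophages stood below monocytes in every heart (log2 difference −2.45, SE 0.38, adjusted p = 5.27e-06). Unconventional T cells averaged 22.9 CPM, most of it from the 2 cells of heart 2 (93.2 CPM), and no other type exceeded 6.01 CPM. After thinning 28.8% of monocytes, 5.92% of Mo-DCs, 3.66% of macrophages and 0.282% of Tn had a UMI (64.9%, 7.84%, 10.49% and 0.412% unthinned).

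*Cd163* (chr6:124304656-124330527), the receptor for hemoglobin bound to haptoglobin, had 56 UMIs in all, of which 29 were in macrophages. Macrophages had 10.3, 0, 17.2, 12.7, 0 and 0 CPM (6.70 ± 7.67), and Mo-DCs 44.6 and 8.55 CPM in hearts 1 and 3 and 0 elsewhere. In monocytes, B cells, Treg, Trm-like, Tcm and Tn it had 0 UMIs. The macrophage mean was at least 2.38-fold above the limit of 3 UMIs over all monocytes, which covers counting error only. The fitted macrophage over monocyte difference did not pass the test (0.61, SE 0.25, limma adjusted p = 0.243), and 3 macrophage hearts were at 0. The UMIs fell in 12 macrophages. Of these, 10 had UMIs of at least 2 of 6 markers of resident macrophages, as did 38 of all 429 macrophages, and 11 had *C1qa*, found in 57.8% of macrophages. The sum of the 6 markers was not particular to macrophages (206.5 CPM, against 367.5 CPM in monocytes and 323.3 CPM in fibroblasts). At least 2 of them were found in 4 of 154 monocytes and 8 of 375 fibroblasts.

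*Hmox1* (chr8:75093621-75100589), heme oxygenase 1, the inducible enzyme that breaks down heme, was highest in monocytes. They had 4878, 7378 and 4270 CPM in IL-33+ hearts and 4797, 2535 and 4764 CPM in IL-33- hearts (4770 ± 1553). Macrophages had 1544, 1583, 1762, 2285, 1739 and 3383 CPM (2049 ± 705), below monocytes in every heart although the ranges over hearts overlapped. The difference was −1.21 on the log2 scale (SE 0.31, adjusted p = 0.0123). It missed the threshold when heart 1 (−1.12, adjusted p = 0.0832), heart 3 (−1.19, adjusted p = 0.0725) or heart 4 (−1.23, adjusted p = 0.0546) was left out. Mo-DCs had 790.3 to 2298 CPM (1360 ± 587) and did not differ from macrophages by the test (0.63, SE 0.31, adjusted p = 0.255).

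Outside the phagocytes, fibroblasts had *Hmox1* at 749.5, 549, 799, 663, 713 and 714 CPM (698 ± 85.8), the smallest spread among the higher types. Macrophages were 1.49 above them on the log2 scale (SE 0.31, adjusted p = 4.6e-05). cDCs had 95.4, 126, 175, 87.8 and 104 CPM in 5 hearts and 1015 CPM in heart 2, from 6 cells, and macrophages were 3.48 above them (SE 0.31, adjusted p = 2.52e-15; 3.96 without hearts holding fewer than 10 cells of a type). Lymphocyte types averaged 55.1 to 99.2 CPM. After thinning, 94.0% of monocytes, 69.0% of macrophages, 48.4% of fibroblasts and 12.4% of Tn had a UMI (98.7%, 88.8%, 73.1% and 20.6% unthinned). The level was uneven over cells. In macrophages the median cell had 1033 CPM and the 90th percentile 4531 CPM. The top 10% of cells held 40.04% of the level in macrophages, 42.6% in fibroblasts, 59.4% in Mo-DCs and 25.5% in monocytes. Macrophages held 36.8% and monocytes 34.1% of all *Hmox1* UMIs.

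*Blvrb* (chr7:27447978-27466144), biliverdin reductase B, acts after heme oxygenase. It was highest in macrophages at 39.4, 61.3, 70.6, 79.0, 40.7 and 46.7 CPM (56.3 ± 16.5), which held 46.4% of its 373 UMIs. Mo-DCs averaged 38.6 CPM, monocytes 28.8 CPM and B cells 28.5 CPM, unconventional T cells 25.8 CPM and the other 7 lymphocyte types at most 5.00 CPM. Macrophages exceeded cDCs (1.61, SE 0.36, adjusted p = 0.00109) and fibroblasts (1.80, SE 0.36, adjusted p = 3.26e-05). Both calls fell under 2-fold with 50 CPM added in place of 10 (0.74 and 0.81), and with 1 CPM added the adjusted p against cDCs was 0.0952. The excess over monocytes did not pass (0.81, SE 0.36, adjusted p = 0.335). The order of *Hmox1* and *Blvrb* was thus opposite in means, with monocytes first for the former and macrophages first for the latter.

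Mo-DCs were a mixed population for these genes. The 8 neutrophil markers summed to 2193 to 71701 CPM per heart in Mo-DCs, against 228 to 2906 CPM in macrophages and 290 to 1520 CPM in monocytes, and none of the 8 was at 0 in these types. The 46 of 204 Mo-DCs with UMIs of at least 4 neutrophil markers had 26977 ± 16213 CPM of *Fth1*, against 10046 ± 3547 CPM in the other 158 (n = 6 hearts). *Hp* averaged 330 against 22.2 CPM (30 and 5 UMIs), *Slc11a1* 305.9 against 157 CPM (24 and 63 UMIs) and *Slc40a1* 86.5 against 10.6 CPM (17 and 6 UMIs). These means did not hold in every heart. *Slc11a1* was 0 in hearts 1 and 5 of the cells with the markers, against 111 and 61.9 CPM in the other cells. *Hp* was 0 against 61.9 CPM in heart 5, and *Slc40a1* was found in hearts 3 and 4 only. *Hmox1* had no common order: its mean was 831 against 1460 CPM with 2 hearts at 0 in the first, it was higher in the cells with the markers in hearts 2 (2509 against 2228 CPM) and 3, and the thinned shares of cells with a UMI were 51.2% and 49.7%. *Blvrb* had 0 against 24 UMIs, *Cd163* 0 against 7 UMIs and *Tfrc* 1 against 18 UMIs. Of the 14 Mo-DCs with *Slc40a1*, 11 had a UMI of the neutrophil gene *S100a8*, found in 25.5% of all Mo-DCs. Without the 46 cells, macrophages were above Mo-DCs in *Fth1* (0.63, SE 0.13, adjusted p = 0.000565) and *Ftl1* (0.69, SE 0.18, adjusted p = 0.00927), both under 2-fold, and the *Hp* difference turned from −0.89 (adjusted p = 0.182) to 0.74 (adjusted p = 0.267).

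**Figure D3:**
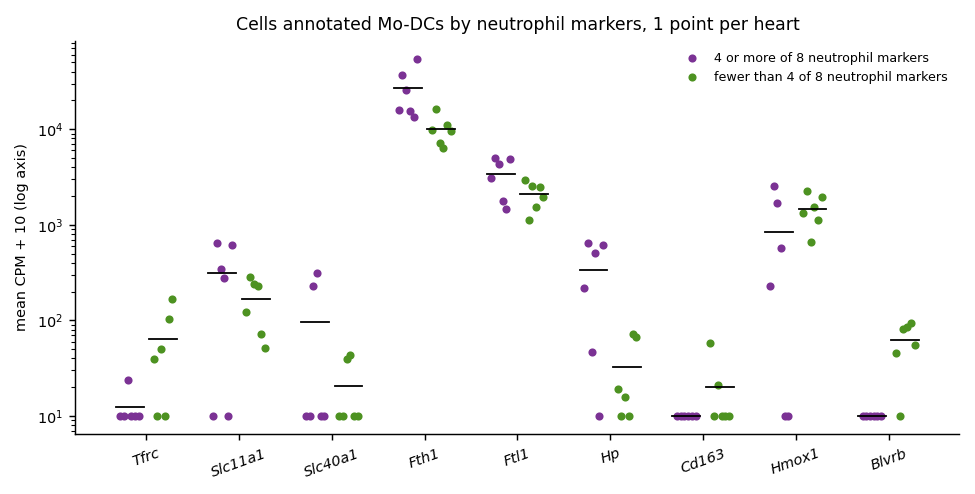
Mean CPM of the 9 genes in Mo-DCs split by UMIs of at least 4 of 8 neutrophil markers; points are hearts on a log axis of CPM + 10, and horizontal lines mark the mean over 6 hearts. *Fth1* averaged 26977 CPM in the 46 cells with the markers and 10046 CPM in the 158 without, with overlapping ranges over hearts (13421 to 54693 and 6382 to 16338 CPM). Each heart counts equally, and heart 2 held 4 Mo-DCs in all. The hearts of the 2 sets overlap for *Hmox1* as well.

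Unconventional T cells, a type of 83 cells, had myeloid levels of several members: 10458 ± 3027 CPM of *Fth1*, 2132 ± 469 CPM of *Ftl1* and 864 ± 312 CPM of *Hmox1*. The macrophage markers summed to 2494 to 4941 CPM in this type, all 10 were detected, and 50 of its cells had at least 2 T cell and 2 macrophage markers. *Fth1* was 10025 CPM in those 50 cells and 9769 CPM in the others, and *Hmox1* 737 and 923 CPM, so the split did not separate the levels. All 11 *Cd163* UMIs of the type were in the 50 cells. The part of such cells in the type's levels was not tested further.

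Other genes of iron and heme handling were taken as a list of 49, of which 46 could be tested between types. In the myeloid against the lymphocyte types 12 were called higher and 0 lower (6.27% and 6.54% of all genes), with a median log2 difference of 0.28 (all genes −0.09). They were *Lrp1* (2.79), a receptor for heme bound to hemopexin, *Nfe2l2* (2.38) and *Bach1* (1.81), the activator and the repressor of *Hmox1* transcription, *Alas1* (1.95), *Srxn1* (1.83), *Txnrd1* (1.76), *Nr1h3* (1.48), *Hfe* (1.41), *Gclm* (1.30), *Slc39a14* (1.24), *Lcn2* (1.06) and *Slc11a2* (1.01). *Nfe2l2* averaged 363 CPM in macrophages and 49.3 CPM in NK cells, and *Bach1* 398 CPM in macrophages, 542 CPM in monocytes and 85.4 CPM in NK cells. Monocytes were thus highest in both *Bach1* and *Hmox1* among these 3 types.

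Against monocytes, 0 of the 46 were called in macrophages in either direction (1.44% of all genes higher and 0.548% lower), with a median of 0.07 (all genes 0.06). Against cDCs 7 were higher and 0 lower (3.2% and 1.91% of all genes), with a median of 0.42 (all genes 0.00). They were *Lrp1* (2.58), *Trf* (2.21), *Slc11a2* (1.73), *Nfe2l2* (1.49), *Slc25a37* (1.49), *Bach1* (1.26) and *Steap3* (1.02). Against Mo-DCs 3 were higher, *Hfe* (1.65), *Slc25a28* (1.58) and *Spic* (1.06), and 2 lower, *Fbxl5* (−1.28) and *Lcn2* (−2.65), as against 3.37% and 0.868% of all genes, with a median of 0.20 (all genes 0.10). Against fibroblasts the list was divided, with 7 higher and 6 lower (8.41% and 10.8% of all genes) and a median of 0.23 (all genes −0.03). *Slc25a28* (1.91), *Trf* (1.72), *Hfe* (1.22), *Fbxl5* (1.19), *Spic* (1.19), *Bach1* (1.10) and *Nfe2l2* (1.02) were higher in macrophages. *Cp*, the ferroxidase that assists iron export, was 219 ± 30.1 CPM in fibroblasts and 11.4 ± 10.4 CPM in macrophages (log2 difference −3.56, SE 0.29, adjusted p = 2.64e-18). The metalloreductases *Steap4* (−3.17) and *Steap3* (−2.37), *Bmp6* (−2.04), *Abcg2* (−1.82) and the ferroxidase *Heph* (−1.13) were lower in macrophages as well. *Hamp*, which encodes the iron hormone hepcidin, had 8 UMIs in all cells, *Tfr2* 29 and *Hpx* 4.

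The comparison of IL-33+ with IL-33- hearts asks whether the members' levels in the infiltrate differed between grafts labelled BM12 WT and BM12 IL33 KO. No member was called in any type. Over 80 pairs of a member and a type that passed the filter on low values, 0 had an adjusted p of 0.05 or less, as against 0.00884% of all gene and type pairs. At an unadjusted limma p of 0.05 or less there were 7, with 3 higher and 4 lower in IL-33+ hearts, as against 4.71% of all pairs. The 3 hearts of one group lay beyond the 3 of the other in 10 pairs (5 higher and 5 lower), as against 9.82% of all pairs. The pairs share hearts and genes, so these counts are a description. Whether the hearts came from separate operations is not in the labels, so p-values measure the spread between these hearts only.

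In macrophages all 9 members were tested, and 1 had an unadjusted p of 0.05 or less, as against 4.04% of genes in that type. *Hmox1* was 1544, 1583 and 1762 CPM in IL-33+ hearts and 2285, 1739 and 3383 CPM in IL-33- hearts, so 1 IL-33- heart fell within the range of the others. The log2 difference was −0.54 (SE 0.21, limma adjusted p = 0.987), and −0.29 without heart 6, where the unadjusted p was above 0.05. *Fth1* (−0.22, SE 0.17), *Ftl1* (−0.04), *Blvrb* (0.05), *Hp* (−0.06), *Slc11a1* (0.39) and *Tfrc* (0.65) had adjusted p-values of 0.987 or more.

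In monocytes 6 members passed the filter and 2 had an unadjusted p of 0.05 or less, as against 4.87% of genes. *Hp* averaged 340 ± 57.3 CPM in IL-33+ hearts and 149 ± 85.3 CPM in IL-33- hearts without overlap (log2 difference 1.33, SE 0.38, limma adjusted p = 0.377). It was 0.75 without heart 5, the lowest, which held 7 monocytes, and also 0.75 without the 2 hearts (2 and 5) of fewer than 10 monocytes. *Hmox1* averaged 5509 CPM in IL-33+ and 4032 CPM in IL-33- hearts (0.47, SE 0.19, limma adjusted p = 0.965), with overlap. Without hearts 2 and 5, which held its highest and lowest value from 5 and 7 cells, the difference was −0.07.

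The macrophage minus monocyte difference was also compared between genotypes within hearts. For *Hmox1* it combines the values just given and is no independent evidence, and without hearts 2 and 5 its signs in the 2 types were no longer opposite. Of 6 members tested, 0 passed at an adjusted p and 1 had an unadjusted p of 0.05 or less, as against 4.21% of genes. For *Hmox1* the macrophage minus monocyte difference was lower in IL-33+ hearts, with a log2 value of −1.01 for IL-33+ minus IL-33- (SE 0.24, limma adjusted p = 0.93). It ranged from −1.23 to −0.76 when each heart was left out in turn and was −0.68 without hearts 2 and 5. The other 5 members did not reach that limit, and *Hp*, with a difference of −1.39 (SE 0.71), came nearest.

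**Figure D4:**
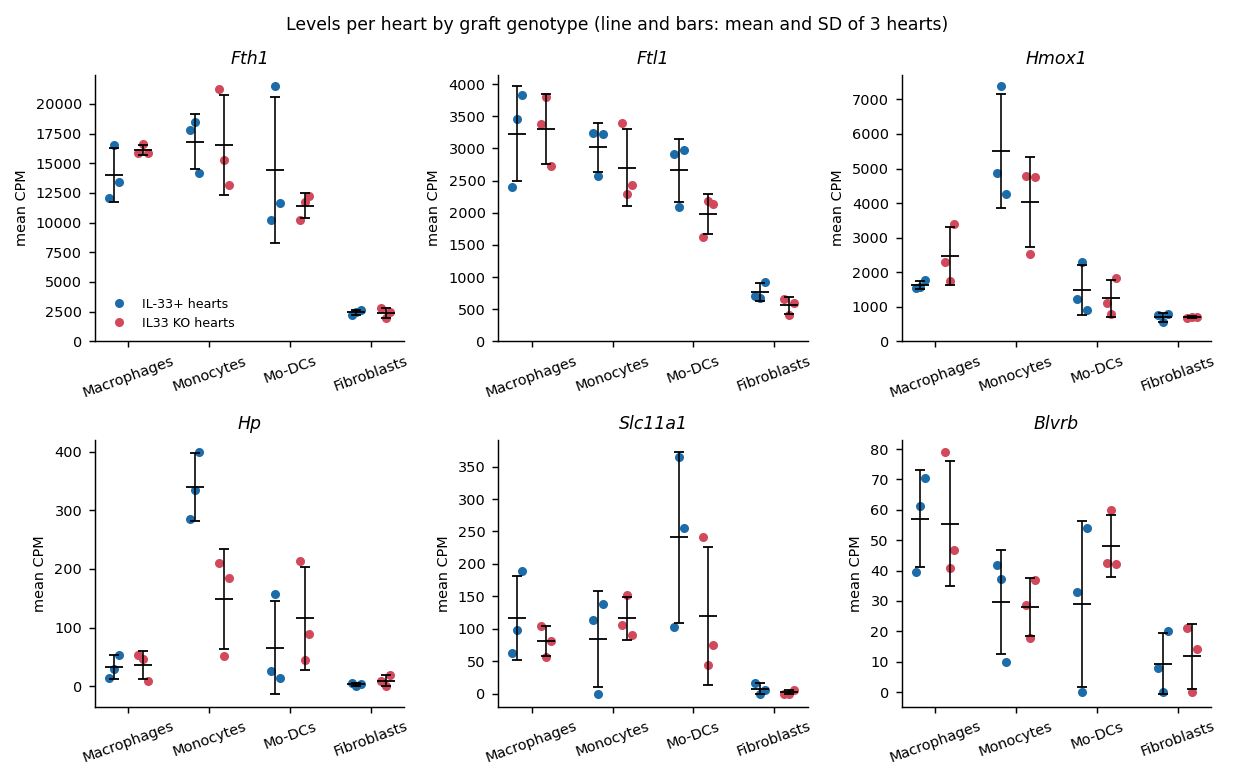
Mean CPM per heart of 6 members in macrophages, monocytes, Mo-DCs and fibroblasts, for IL-33+ and IL33 KO hearts (n = 3 each); points are hearts, and lines with bars the mean and SD of the group. *Hp* in monocytes separates the groups (286 to 399.8 against 51.3 to 210.1 CPM), while *Hmox1* in monocytes and macrophages overlaps.

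The other 4 pairs with an unadjusted p of 0.05 or less were in B cells, Treg and unconventional T cells. *Tfrc* in B cells was lower in IL-33+ hearts (59.3 against 155 CPM, without overlap; −1.34, SE 0.56, limma adjusted p = 0.844). In B cells the median of all genes lay at 0.28, heart 5 held 4 B cells, and the difference was −0.94 without heart 2 and −1.44 without hearts of fewer than 10 B cells. *Fth1* in Treg was 3705, 3637 and 3053 CPM in IL-33+ and 4481, 4140 and 5298 CPM in IL-33- hearts without overlap (−0.42, SE 0.15, limma adjusted p = 0.847), and −0.32 without heart 6. In unconventional T cells *Fth1* was 8521 against 12396 CPM (−0.51, SE 0.19, adjusted p = 0.984). That difference was −0.10 without cells holding T cell and macrophage markers and −0.31 without heart 6. *Hp* in the same type was 44.3 against 1.55 CPM (1.96, SE 0.85, adjusted p = 0.984) with 1.35 without heart 2 and 0.99 without hearts of fewer than 10 cells.

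The remaining pairs whose hearts did not overlap were *Tfrc* in unconventional T cells and *Ftl1* in fibroblasts and Trm-like cells, higher in IL-33+ hearts, and *Hmox1* in B cells and *Fth1* in Trm-like cells, lower in IL-33+ hearts. Of 424 pairs of the other iron and heme genes and a type, 0 passed at an adjusted p, 17 had an unadjusted p of 0.05 or less (4 higher, 13 lower; 4.71% of all pairs) and 40 did not overlap (13 higher, 27 lower; 9.82% of all pairs), and neither count was above the share over all pairs. Among macrophages, monocytes, Mo-DCs and fibroblasts the 1 with an unadjusted p of 0.05 or less was *Lcn2*, a neutrophil granule protein that binds bacterial iron carriers, in Mo-DCs (−3.09, SE 0.94, adjusted p = 0.403). Its level there was 0, 0 and 258 CPM in IL-33+ and 2683, 599 and 0 CPM in IL-33- hearts. The hearts overlapped, and heart 4 also had the highest neutrophil marker sum (71701 CPM).

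**Figure D5:**
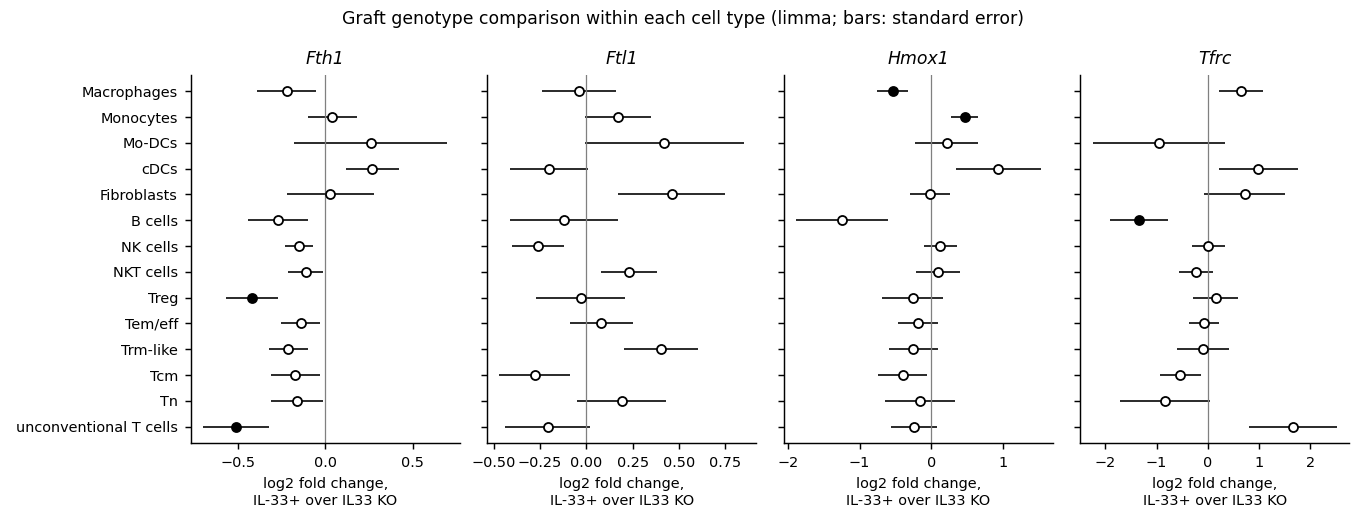
Log2 difference (CPM + 10) between IL-33+ and IL-33- hearts for *Fth1*, *Ftl1*, *Hmox1* and *Tfrc* in each cell type that passed the filter; points are the fitted differences, filled where the unadjusted p was 0.05 or less, and bars their standard errors. No pair passed at an adjusted p of 0.05, and *Hmox1* lies at −0.54 in macrophages and 0.47 in monocytes.

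Across the 14 types *Fth1*, *Ftl1*, *Slc11a1*, *Hmox1*, *Hp* and *Blvrb* had like profiles. Pearson's r of log2(CPM + 10) means over the 14 types was 0.946 for *Fth1* and *Slc11a1*, 0.933 for *Fth1* and *Ftl1*, 0.913 for *Hmox1* and *Hp* and 0.861 for *Hmox1* and *Fth1*. The lowest among these 6 was 0.715 (*Hp* and *Blvrb*). With the members other than *Tfrc*, *Cd163* had 0.431 (*Hp*) to 0.757 (*Ftl1*) and *Slc40a1* 0.402 (*Fth1*) to 0.628 (*Cd163*). *Tfrc* ranged from −0.67 with *Hmox1* to −0.002 with *Slc40a1*. These are descriptions over types that share 1 library and 6 hearts. Among 11579 genes, the 3 most like *Hmox1* were *Gda* (0.989), *Ifi204* (0.985) and *Bach1* (0.981), a gene of the heme list. Those most like *Fth1* were *Cd14* (0.987), *Clec4a1* (0.981) and *Lyz2* (0.98), and those most like *Ftl1* were the lysosomal genes *Psap* (0.985) and *Atp6v0b* (0.976) with *Nceh1* (0.977). *Slc11a1* was nearest to *Nlrp3* (0.981), *Clec4d* (0.978) and *Ccl6* (0.973), and *Hp* to *Hpgd* (0.986), *Treml4* (0.974) and *Atg7* (0.973). *Cd163* was nearest to *Ccl24* (0.964), *Mgl2* (0.95) and *Slamf9* (0.938), *Slc40a1* to *Bvht* (0.941), *Rps6ka2* (0.93) and the neutrophil gene *S100a9* (0.913), and *Blvrb* to *Abca1* (0.96) and *Unc93b1* (0.956). *Tfrc* had less alike neighbors, *Dnlz* (0.89), *Coq8a* (0.881) and *Hnrnpdl* (0.844).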

How the data were processed

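The authors aligned reads with Cell Ranger to mm10 and normalized in Partek 10.0.23.0425, per the labels. The deposited values are log2(CPM + 1) per gene and cell, with an annotation of type, genotype and hashtag for each cell. Within a cell the smallest step between values gives 1 UMI, from which whole UMIs were computed, and 99.94% of 7921711 low values lay within 0.05 UMIs of a whole number. For 22 symbols values were off whole, and none of the 18 with 5 or more such values was a gene listed here.

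Per heart and type, the mean CPM over cells was taken, 10 CPM was added before log2, and limma 3.58.1 (R 4.3.3; lmFit, eBayes with trend) was fitted across all genes with at least 10 UMIs and a UMI in at least 3 hearts, with Benjamini-Hochberg adjustment. No count model was run on the recovered UMIs; limma-voom on summed UMIs was an alternative. Genotype was fitted within each type, and types were compared with heart as a term. Scripts in Python 3.11.15 (numpy 2.4.6, scipy 1.17.1, pandas 2.3.3) were tested on simulated data. Shares used each cell thinned to 1500 UMIs, and no cell was left out. Doublets were not removed again, since the annotated cells were kept as deposited. Tn shares are given for comparison and were not shown to measure free RNA. For *Fth1* they do not, since Tn averaged 2473 CPM, near Tem/eff at 2529 CPM.

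The members and lists were chosen with earlier results of these data known. Named genes are the members, the 3 genes of highest correlation with each across types (at least 50 UMIs; 1 of those nearest to *Blvrb* is not reported here), and listed iron and heme genes that passed a type comparison or had an unadjusted p of 0.05 or less in macrophages, monocytes, Mo-DCs or fibroblasts. Marker splits use lists of 8 neutrophil, 10 macrophage and 6 resident macrophage markers.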

Additional observations from a re-analysis of the deposited data

How the results depend on the processing

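Of 120 alternative values of the main comparisons, 114 kept their direction and their side of the threshold, or stayed within 1.5 times of a count. With robust limma, 1 pair was called between genotypes (*Fth1* in unconventional T cells) where the standard fit called 0. Against monocytes, macrophages had 1 to 2 members called when a heart was left out. Against Mo-DCs, the 0 members called became 3 with limma-voom (*Slc40a1* −2.93, *Cd163* −1.51 and *Hp* −1.27) and 0 to 1 when a heart was left out (*Hp* −1.35 without heart 3). The shares of all genes called in these settings are not given here, so the counts are no result about the members, and the cause was not tested. *Hmox1* in monocytes reversed to −0.07 between genotypes without hearts of fewer than 10 cells. Calls over all genes and types between genotypes numbered 10, and were 3 with a pseudocount of 1 CPM, 37 with 50 CPM, 67 without the filter on low values, 28 with limma-voom, 16 with robust limma and 4 to 108 when a heart was left out (4 without heart 5 and 108 without heart 1). Member pairs with an unadjusted p of 0.05 or less numbered 7, 20 with limma-voom and 5 to 12 when a heart was left out (12 without heart 2). Member pairs whose hearts did not overlap numbered 10, 22 without hearts of fewer than 10 cells and 13 to 21 when a heart was left out, where fewer hearts are left to overlap. In the macrophage minus monocyte comparison, the 1 member with an unadjusted p of 0.05 or less became 2 with 50 CPM added or with summed UMIs, 3 with limma-voom and 1 to 2 when a heart was left out. For these counts of members and member pairs, the shares over all genes or pairs under each alternative are not given here. The counts therefore describe the settings only. With 50 CPM added, *Blvrb* (0.74 and 0.81) and *Hp* (0.61 and 0.57) fell under 2-fold against cDCs and fibroblasts, and *Blvrb* (0.57) and *Tfrc* (−0.50) did so for myeloid against lymphocyte types. With 1 CPM added, *Blvrb* against cDCs had an adjusted limma p of 0.0952. With a common median of all genes, *Tfrc* for myeloid against lymphocyte types was −0.91, and −0.90 without hearts of fewer than 10 cells. Among the other results, levels and shares aside, 465 alternatives kept direction and side of the threshold, 36 lost the threshold, 24 counts moved and 1 value reversed. Without thinning, 66 of 126 shares lay above the highest heart of the thinned share. No paired analysis was possible because the hearts are numbered 1 to 3 in one group and 4 to 6 in the other and share no replicate number. Low counts limit *Slc40a1* and *Cd163*, with 82 and 56 UMIs in all, and heart 2 holds 10 or fewer cells of several myeloid types.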
